A study of Mus musculus with 3 samples.

Results

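Fibromodulin (Fmod), prolargin (Prelp), opticin (Optc), lubricin (Prg4), dermatopontin (Dpt) and extracellular matrix protein 1 (Ecm1) were followed across the cells of the mitral valve. All 6 genes were chosen by name, and all 6 were among the 3264 genes read from the deposited matrix of 16383 cells. The study used mice homozygous for the hypomorphic fibrillin-1 allele mgR, listed as B6.129-Fbn1tm2Rmz/J, in which a neo cassette within an Fbn1 intron lowers Fbn1 expression and the mitral valve becomes myxomatous. The labels name 3 samples of mitral valve from this strain, with the library name mgR/mgR, and the study's methods give an age of 12 weeks and also describe wild-type mice, rapamycin-treated mgR mice, and nuclei as well as cells. The matrix joined its cells without a map from cell to mouse, so genotype, treatment and cell or nucleus could not be assigned, and it was treated as 1 sample. No test between conditions was therefore possible. All intervals are 95% intervals that cover counting error only, not the spread between mice.

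Fibromodulin, prolargin and opticin belong to the small leucine-rich proteoglycans, secreted proteins whose leucine-rich repeats bind collagen. Fibromodulin and prolargin organise collagen fibrils in tendon, cartilage and basement membranes, and opticin is best known from the vitreous of the eye. Lubricin is a mucin-like glycoprotein that coats joint surfaces and lowers friction, dermatopontin is a small matrix protein that binds decorin and collagen, and ECM1 is a secreted glycoprotein that binds perlecan and other matrix proteins. In a heart valve the fibroblast-like interstitial cells make most of the matrix, and a sheet of endothelial cells covers the leaflet.

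Cells were grouped by genes outside the 6. Fibroblasts carried a unique molecular identifier (UMI, 1 counted transcript) of Prrx1 or Col3a1 and none of Egfl7, and numbered 4164 (25.4% of cells, median 5677.5 UMIs per cell). They were split into 928 with Scn7a, a sodium channel gene, and 3236 without. Endothelial cells carried Egfl7 and no Prrx1 and numbered 8952 (54.6%, median 5380 UMIs). Cells with Ptprc, the pan-leukocyte gene, and no gate gene of the other groups numbered 422 (2.58%, median 4844.5 UMIs). Levels are given as UMIs of a gene per 10000 UMIs of the group. The summed level of the 4 fibroblast markers in the matrix was 22.6 in fibroblasts, 7.40 in endothelial cells and 1.09 in Ptprc cells, that of 5 endothelial markers was 0.988, 13.2 and 0.845, and that of 3 macrophage markers was 0.547, 0.348 and 31.6. These sums contain the gate genes, so the gates fixed part of their order. Of the markers outside the gates, Col5a2 stood at 9.43 in fibroblasts and 2.88 in endothelial cells, Postn at 4.65 and 3.78, Prox1 at 0.192 and 2.66 and Notch1 at 0.651 and 2.64, and Fcgr1 stood at 0.530 in Ptprc cells against 0.0109 in fibroblasts. Postn thus barely separated the groups, and 1521 endothelial cells also carried a Col3a1 UMI. The barcodes formed 2 alphabetical runs of 14222 and 2161 cells that shared 11 barcodes, and values are also given within each run because the labels do not say what the runs are.

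Optc, Prelp and Fmod lie in the same stretch of chromosome 1 of GRCm38 (mm10). In the GENCODE annotation Optc spans chr1:133897199-133907999 and Prelp chr1:133910304-133921414, both on the minus strand and 2305 bases apart. Fmod spans chr1:134037254-134048277 on the plus strand, 115840 bases beyond Prelp, with Gm1627 and Gm18970 between them. Prg4 (chr1:150449412-150466165, minus strand) and Dpt (chr1:164796644-164824266, plus strand) lie elsewhere on chromosome 1, and Ecm1 lies at chr3:95734147-95739569 on the minus strand. The antisense gene Gm15851 overlaps Prelp and Optc, the antisense gene Gm32569 overlaps Dpt, and the end of Tpr overlaps the end of Prg4. Whether the authors' counting used strand is not given in the sources used here, so reads in those overlaps cannot be assigned. Gm15851 stood at 0.0186 in fibroblasts and 0.00484 in endothelial cells, and Gm32569 at 0.336 and 0.0962. Tpr, a nuclear pore gene, stood at 2.23 in fibroblasts and 2.44 in endothelial cells.

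The 250 bases before the RefSeq start (GRCm38.p6) were available for 5 of the 6 genes, all but Prg4. Those of Fmod and Prelp are shown because these genes of the same stretch were found together in fibroblasts, and those of Dpt and Ecm1 because these genes followed other patterns. The windows are chr1:134037004-134037253 (plus strand) for Fmod, chr1:133921402-133921651 (minus strand) for Prelp, chr1:164796413-164796662 (plus strand) for Dpt and chr3:95739570-95739819 (minus strand) for Ecm1. Each is printed 5′ to 3′ on the gene's strand, and capitals mark motif matches.
Fmod: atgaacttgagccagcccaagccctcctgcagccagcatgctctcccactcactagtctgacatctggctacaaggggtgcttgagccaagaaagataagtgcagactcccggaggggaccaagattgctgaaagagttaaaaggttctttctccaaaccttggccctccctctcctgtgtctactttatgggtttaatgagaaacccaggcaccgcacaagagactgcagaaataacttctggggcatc
Prelp: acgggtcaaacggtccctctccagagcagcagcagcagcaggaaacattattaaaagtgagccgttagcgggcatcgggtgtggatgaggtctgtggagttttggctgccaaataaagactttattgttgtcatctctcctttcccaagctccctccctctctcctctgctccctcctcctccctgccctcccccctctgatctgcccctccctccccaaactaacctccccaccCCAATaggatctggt
Dpt: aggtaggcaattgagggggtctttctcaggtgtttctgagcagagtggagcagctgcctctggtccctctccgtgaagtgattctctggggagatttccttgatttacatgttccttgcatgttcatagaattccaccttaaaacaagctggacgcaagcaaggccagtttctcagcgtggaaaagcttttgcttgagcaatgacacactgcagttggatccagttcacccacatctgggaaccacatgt
Ecm1: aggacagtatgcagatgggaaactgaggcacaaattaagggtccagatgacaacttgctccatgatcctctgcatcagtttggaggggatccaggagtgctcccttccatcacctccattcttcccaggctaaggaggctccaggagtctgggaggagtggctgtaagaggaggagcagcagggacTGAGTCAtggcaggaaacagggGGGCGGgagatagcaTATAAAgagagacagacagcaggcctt
The motifs searched on both strands were TATAAA (the TATA box), CCAAT (the NF-Y motif), GGGCGG (the GC box), TGANTCA (AP-1), GGAATG (TEAD) and TGTTTAC (forkhead). Ecm1 held TATAAA at position -27, GGGCGG at -42 and the AP-1 match TGAGTCA at -64 relative to the start, and Prelp held CCAAT at -15. These matches did not overlap each other. GENCODE places the start further upstream for 2 genes, so that the last 13 bases of the Prelp window and the last 19 of the Dpt window lie inside the GENCODE gene, and the CCAAT of Prelp spans that start. Over 32851 promoter windows of the same length, TATAAA occurred in 12.4%, CCAAT in 33.8%, GGGCGG in 32.7%, TGANTCA in 6.75%, GGAATG in 12.6% and TGTTTAC in 3.17%. The windows of Fmod and Dpt held none of these letter strings. The share of G and C was 51.2% in Fmod, 55.6% in Prelp, 48.8% in Dpt and 54% in Ecm1, against a median of 52.4% over all windows.

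Prg4, Dpt, Fmod and Prelp stood higher in fibroblasts, and Ecm1 stood higher in endothelial cells. Among the 5 members with enough UMIs, 4 were at least 2-fold higher in fibroblasts than in endothelial cells and 1 was at least 2-fold lower. Over the 2630 genes measured in this comparison, 18.2% were at least 2-fold higher and 14.1% at least 2-fold lower. Optc had 11 UMIs in 10 cells of the whole matrix, of which 6 UMIs fell in fibroblasts and 3 in endothelial cells, and was not read further. None of its UMIs fell in Ptprc cells, where 3 counts would have given a level of 0.0137.

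Prg4 stood at 13.3 UMIs per 10000 in fibroblasts (13.2 to 13.5, 34283 UMIs in 2461 cells). It stood at 0.344 in endothelial cells (0.328 to 0.360) and at 0.799 in Ptprc cells (0.685 to 0.927). The Ptprc level rested on the first run, with 1.17 there and 0.0420 (3 UMIs) in the second, while endothelial cells stood at 0.381 and 0.189. Fibroblasts were highest in both runs, and the order of the other groups turned between them, with a ratio of endothelial to Ptprc cells of 0.430 over both runs and 4.49 (1.51 to 21.9) in the second. The fibroblast level was 38.7-fold the endothelial level (36.9 to 40.6). Prg4 was unevenly spread among fibroblasts. The fibroblasts with a Prg4 UMI had a median of 6 and a maximum of 192, and the 10% of fibroblasts with the most Prg4 held 61.9% of its UMIs. For Dpt, which has fewer UMIs, the corresponding share was 43.0%. The fibroblast level of Prg4 was 14.2 in the first run of barcodes and 5.02 in the second, and the ratio to endothelial cells was 37.3 and 26.6. With the gate genes read after thinning each cell to 2000 UMIs it was 22.1.

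Dpt stood at 2.36 in fibroblasts (2.30 to 2.42, 6081 UMIs), 0.0712 in endothelial cells (0.0643 to 0.0787) and 0.128 in Ptprc cells (0.0850 to 0.185). Unlike Prg4, it was not lower in the second run, with 2.31 and 2.81 in fibroblasts. In the second run endothelial and Ptprc cells could not be told apart (ratio 1.61, 0.607 to 6.01). The ratio of fibroblasts to endothelial cells was 33.1 (29.9 to 36.8), and 34.6 and 31.2 within the runs.

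Fmod was sparse, with 674 UMIs in 396 fibroblasts and at most 10 in a cell. Its level was 0.262 in fibroblasts (0.242 to 0.282) and 0.0121 in endothelial cells (0.00933 to 0.0154), a ratio of 21.6 (16.8 to 28.4). Ptprc cells held 3 Fmod UMIs, a level of 0.0137, and their ratio to endothelial cells could not be told from 1. Within the runs the ratio of fibroblasts to endothelial cells was 22.3 and 14.2.

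Prelp stood at 1.53 in fibroblasts (1.48 to 1.58, 3934 UMIs), 0.563 in endothelial cells (0.544 to 0.584) and 0.233 in Ptprc cells (0.173 to 0.306). The 3 groups were apart, and the step from fibroblasts to endothelial cells was 2.71-fold (2.58 to 2.84). The highest count in any cell, 37 UMIs, was in an endothelial cell. The ratio was 2.67 and 2.76 within the runs.

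Ecm1 had the opposite order. It stood at 1.82 in endothelial cells (1.78 to 1.85, 9760 UMIs) and at 0.416 in fibroblasts (0.391 to 0.441), a 4.37-fold difference (4.10 to 4.66). Ptprc cells stood at 0.480 (0.392 to 0.581), with a ratio of fibroblasts to Ptprc cells of 0.867 (0.709 to 1.07). This ratio was 1.10 in the first run (0.836 to 1.46) and 0.609 in the second (0.431 to 0.872), where Ptprc cells stood higher. The endothelial excess was 4.34-fold in the first run and 4.44-fold in the second.

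**Figure D1:**
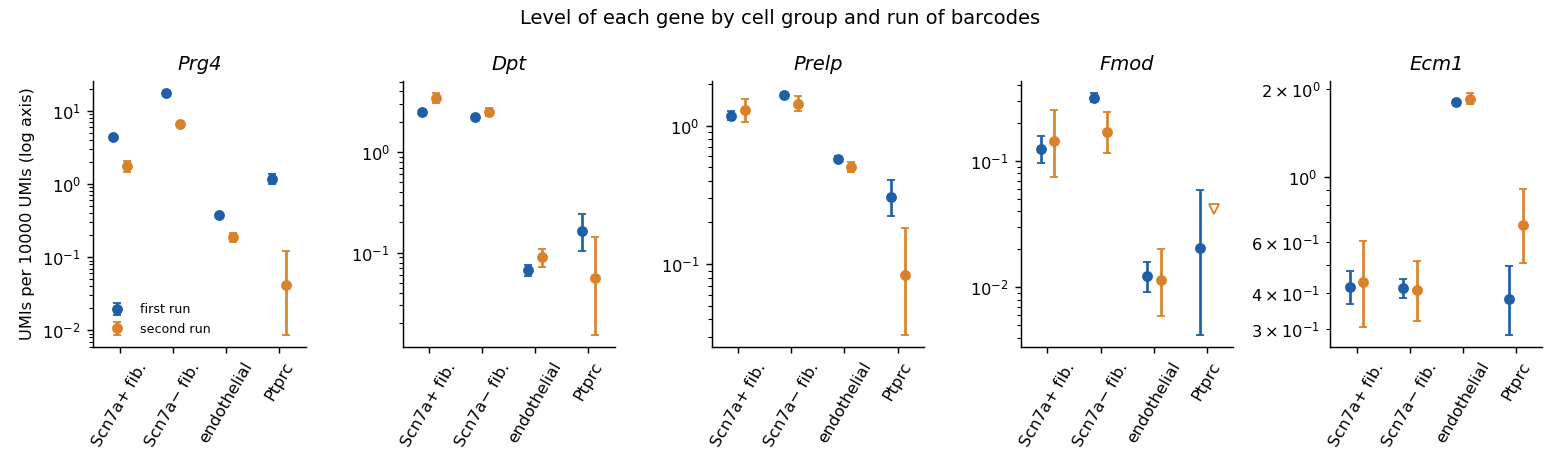
Level of Fmod, Prelp, Prg4, Dpt and Ecm1 in UMIs per 10000 UMIs (log axis) in Scn7a-positive fibroblasts, Scn7a-negative fibroblasts, endothelial cells and Ptprc cells. Points are the first and the second run of barcodes and bars are 95% exact Poisson intervals. Ecm1 alone is highest in endothelial cells, with 1.82 against 0.416 in fibroblasts over both runs.

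RNA released from other cells can place UMIs in cells that do not express a gene, so shares were set beside those of Ptprc cells with each cell thinned to 2000 UMIs. Thinning left 3933 fibroblasts, 8389 endothelial cells and 373 Ptprc cells. Prg4 was found in 47.9% of fibroblasts, 3.58% of endothelial cells and 5.36% of Ptprc cells, against 59.1%, 7.45% and 8.53% before thinning. Dpt was found in 33.4%, 1.12% and 2.14%, against 56.9%, 2.44% and 4.03% before thinning. Fmod was found in 4.27%, 0.262% and 0.536%, against 9.51%, 0.581% and 0.711%. For these 3 genes the endothelial share over both runs was below that of Ptprc cells, with overlapping intervals, so no endothelial expression is read from it. In the second run, with 111 Ptprc cells, the Prg4 share was 1.68% in endothelial and 0.901% in Ptprc cells. There Dpt was found in 1.07% and Fmod in 0.153% of endothelial cells, and both in 0 Ptprc cells, again with overlapping intervals. Prelp was found in 23.4%, 8.69% and 3.22%, against 48.3%, 19.8% and 8.29%, so its endothelial share lay above that of the gated Ptprc cells. The gate left out Ptprc cells with Prrx1, Col3a1 or Egfl7, while endothelial cells could keep Col3a1. All 724 cells with Ptprc, of which 122 were fibroblasts and 164 endothelial cells, held Prelp at a level of 0.621 (0.550 to 0.699). Endothelial cells stood at 0.563 (0.544 to 0.584). Prg4 was found in 11.4% of all cells with Ptprc, against 5.36% of the gated ones. These shares alone therefore do not decide whether endothelial cells express Prelp. Ecm1 was found in 27.0% of endothelial cells. Its 7.75% in fibroblasts (6.94% to 8.64%) lay within the interval for Ptprc cells (6.70%, 4.38% to 9.74%), and the values before thinning were 49.0%, 19.9% and 16.6%. The runs differed, with 7.76% in fibroblasts and 4.20% in Ptprc cells (2.11% to 7.39%) in the first. In the second the Ecm1 shares were 7.74% and 12.6% (7.07% to 20.3%).

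The ratio of UMIs within a group gave a similar division, though Dpt and Fmod did not keep a constant ratio to Prg4. For each Prg4 UMI there were 0.177 Dpt UMIs in fibroblasts (0.173 to 0.182) and 0.207 in endothelial cells (0.185 to 0.231). Ptprc cells stood at 0.160 (0.103 to 0.239). The Fmod ratio was 0.0197 (0.0182 to 0.0212) in fibroblasts and 0.0352 (0.0270 to 0.0450) in endothelial cells. Its 0.0171 in Ptprc cells rests on 3 UMIs. Prelp per Prg4 UMI instead went from 0.115 in fibroblasts to 1.64 in endothelial cells, and Ecm1 from 0.0312 to 5.28. The 1521 endothelial cells that carried Col3a1 held 0.948 Prg4 per 10000 UMIs, against 0.212 in the other 7431. Dpt followed with 0.208 against 0.0415 and Fmod with 0.0301 against 0.00816, while Prelp (0.458 against 0.586) and Ecm1 (1.23 against 1.94) were lower where Col3a1 was present. Without the Col3a1 cells the ratio of fibroblasts to endothelial cells was 62.7 for Prg4, 56.9 for Dpt and 32.1 for Fmod. Col3a1 was also uneven among the endothelial clusters described below. The part of free RNA, of joined cells and of endothelial subsets in these values was not tested.

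Clusters made without the 6 genes placed them mostly in the same cell sets. The gate genes were not left out of the clustering, and clusters were assigned to groups by them. The clusters are therefore not an independent check of the gates. Cluster 1 (4097 cells, led by Pak7 and Alx4) and cluster 6 (965 cells, led by Scn7a) were high in Prrx1 and Col3a1. Prg4 stood at 17.3 in cluster 1 and 2.34 in cluster 6, and between 0.140 and 0.188 in the larger Egfl7 clusters 2, 3, 4, 5 and 7. Dpt stood at 2.33 and 2.61 in clusters 1 and 6, and between 0.0205 and 0.0323 in those 5 clusters. Fmod stood at 0.296 in cluster 1 and 0.139 in cluster 6. Prg4 also stood at 2.70 (2.29 to 3.17, 151 UMIs) in cluster 9 (115 cells, led by Pax3), above its level in cluster 6. Only 5.22% of the cells of cluster 9 carried a Prg4 UMI. In cluster 8 (610 cells, led by Kynu and high in Ptprc) Prg4 stood at 1.47. Dpt stood at 0.278 in cluster 8 and 0.412 in cluster 9. With clusters 1 and 6 set against the Egfl7 clusters, the ratio was 89.8 for Prg4, 82.6 for Dpt and 36.9 for Fmod.

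Within the Egfl7 clusters Prelp and Ecm1 varied widely. Prelp stood at 0.945 in cluster 2 (3179 cells, led by Prnd and Tmem163), 0.361 in cluster 3 (3031 cells, led by Kif26b), 0.172 in cluster 4 (2290 cells, led by Selp and Fmo2) and 0.239 in cluster 5 (1293 cells, led by Frem2). It stood at 1.61 in cluster 7 (701 cells, led by Gm2000 and Lcn2, median 8990 UMIs per cell), close to its level of 1.62 in cluster 1. Within cluster 7, of which 279 cells came from the second run, Prelp was 2.05 in the first run and 0.901 in the second. Ecm1 stood at 1.59, 2.50, 0.800, 1.82 and 2.86 in clusters 2, 3, 4, 5 and 7. Both genes were thus lowest in cluster 4 and highest in cluster 7 among these 5 clusters, and in clusters 2 and 3 their order was opposite. Col3a1 was found in 43.9% of the cells of cluster 4, and in 4.75% to 10.1% of those of clusters 2, 3, 5 and 7. The part of cluster 4 in the split of endothelial cells by Col3a1 was not tested.

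**Figure D2:**
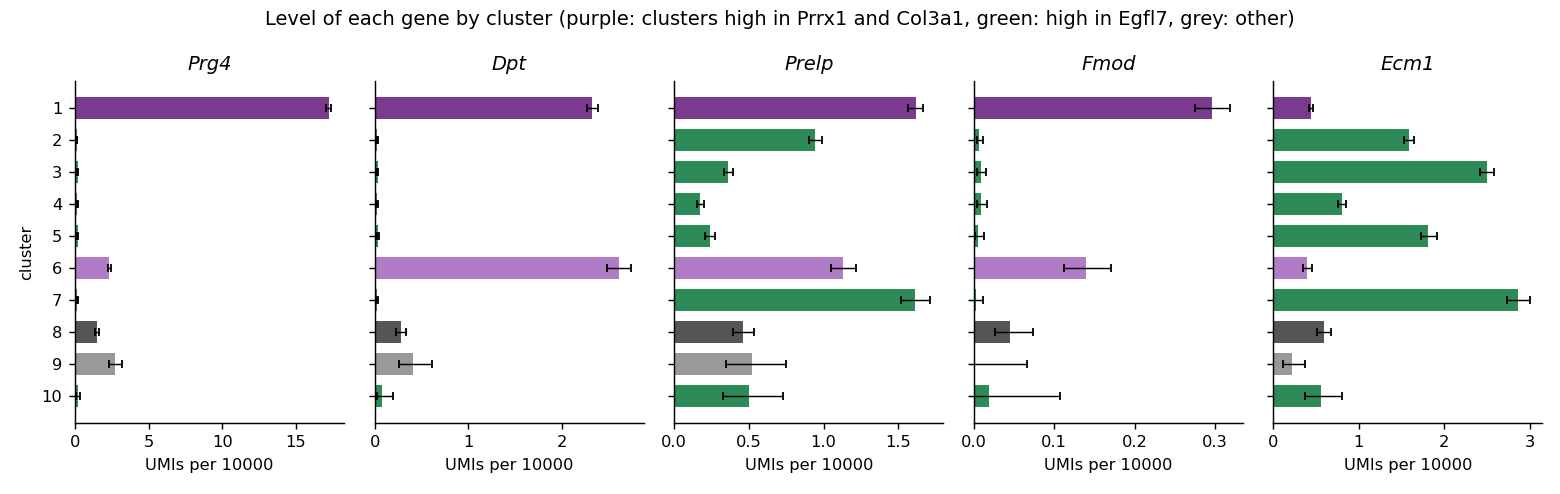
Level of each gene in UMIs per 10000 in clusters 1 to 10, made without these genes. Bars are levels with 95% exact Poisson intervals, purple for the clusters high in Prrx1 and Col3a1, green for those high in Egfl7 and grey for the others. Prg4, Dpt and Fmod are high in clusters 1 and 6, and Prelp and Ecm1 are high in cluster 7 among the green clusters. Prg4 also stands at 1.47 and 2.70 in the grey clusters 8 and 9.

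Splitting fibroblasts by Scn7a separated Prg4 and Fmod from Dpt. Prg4 stood at 16.3 in Scn7a-negative fibroblasts (16.1 to 16.5) and 4.09 in Scn7a-positive fibroblasts (3.94 to 4.25), 3.99-fold apart (3.83 to 4.15). Fmod stood at 0.305 (0.281 to 0.331) and 0.128 (0.102 to 0.159), 2.39-fold apart (1.89 to 3.05). Of the 5 members these 2 were at least 2-fold lower with Scn7a and 0 were at least 2-fold higher, where 6.55% and 3.41% of 2289 genes were. The Prg4 ratio was 3.89 in the first run and 3.77 in the second, and cluster 6 stood at 0.135 of the level of cluster 1. The Fmod ratio was 2.54 in the first run and 1.18 in the second (0.585 to 2.52), so the second run alone did not separate the groups.

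Prelp leaned the same way, with 1.64 without Scn7a and 1.19 with it, 1.37-fold apart (1.26 to 1.48). The second run alone gave 1.11 (0.884 to 1.41). Dpt leaned the other way, with 2.63 in Scn7a-positive (2.50 to 2.75) and 2.27 in Scn7a-negative fibroblasts (2.21 to 2.34), a ratio of 1.15 (1.09 to 1.22) and of 1.11 and 1.36 within the runs. Ecm1 did not separate the groups at this depth, with a ratio of 1.02 (0.883 to 1.17). At 2000 UMIs per cell, Prg4 was found in 22.5% of Scn7a-positive and 55.4% of Scn7a-negative fibroblasts, Fmod in 2.33% and 4.85%, Prelp in 18.2% and 24.9%, and Dpt in 38.2% and 31.9%. Markers of other cell types also differed between Scn7a-positive and Scn7a-negative fibroblasts. The summed level was 0.260 and 0.640 for the 3 macrophage markers, 0.658 and 1.10 for the 5 endothelial markers, 0.152 and 0.305 for the melanocyte marker Mlph, 0.0331 and 0.102 for the chondrocyte marker Matn4 and 0.0900 and 0.174 for the 3 cardiomyocyte markers. The 2 mural cell markers (0.0900 and 0.105) and the T cell marker Cd247 (0.0126 and 0.0144) had overlapping intervals. Their part in the split was not tested.

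Over both runs, Prg4, Fmod and Prelp were lower in fibroblasts with more Scn7a UMIs. In fibroblasts with 0, 1, 2 to 3 and 4 or more Scn7a UMIs (3236, 284, 314 and 330 cells), Prg4 stood at 16.3, 6.76, 4.87 and 1.80. Fmod stood at 0.305, 0.203, 0.139 and 0.0719, and Prelp at 1.64, 1.48, 1.23 and 0.983. Dpt stood at 2.27, 2.76, 2.78 and 2.42, with no such order. Ecm1 stood at 0.414, 0.530, 0.417 and 0.355. In the second run, with 35, 28 and 37 cells in the last 3 bins, Prg4 stood at 6.56, 1.33, 4.35 and 0.524, Fmod at 0.171, 0.196, 0.239 and 0.0552 and Prelp at 1.44, 1.30, 1.91 and 0.938, so none of the 3 was lower at each step. A cell of more UMIs is more likely to enter a higher Scn7a bin.

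**Figure D3:**
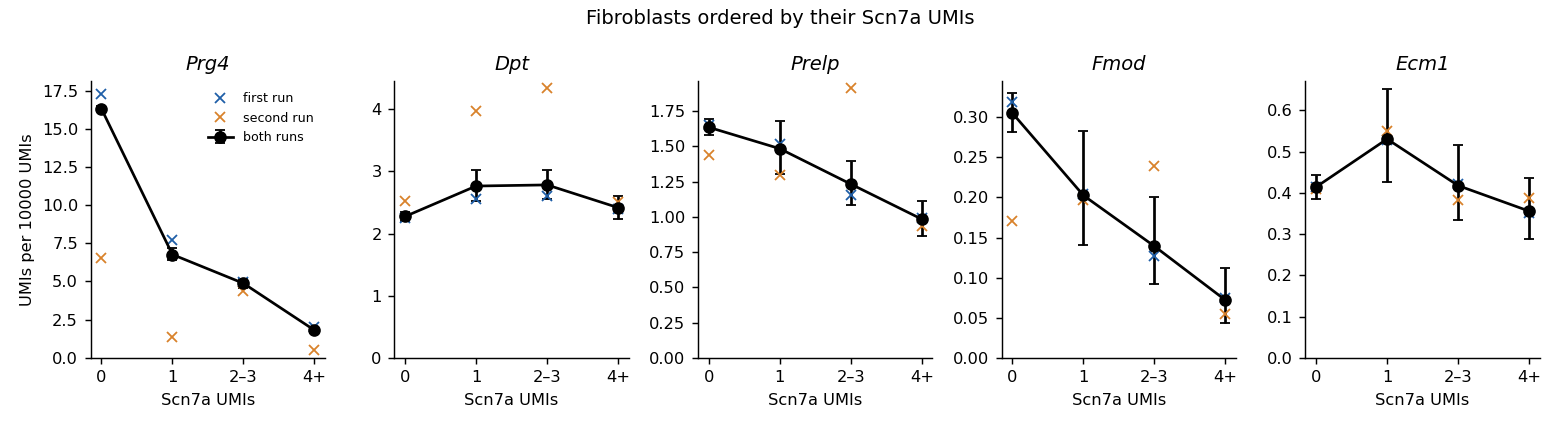
Level of each gene in UMIs per 10000 in fibroblasts grouped by the number of Scn7a UMIs in the cell. Black points are both runs with 95% exact Poisson intervals and crosses are the runs of barcodes. Prg4 goes from 16.3 to 1.80 and Dpt stays between 2.27 and 2.78.

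Fmod, Prelp and Prg4 were found in the same fibroblasts more often than the product of their shares gave. Pairs were counted with each cell thinned to 2000 UMIs, so that deep cells did not add pairs. Fmod and Prelp were found together in 68 cells where the product gave 39.3, a ratio of 1.73 (1.35 to 2.20). Prelp was thus present in 40.5% of fibroblasts with Fmod and 22.6% of those without. Fmod and Prg4 were found together in 118 cells against 80.4 (1.47, 1.21 to 1.76), with Prg4 in 70.2% of fibroblasts with Fmod and 46.9% of those without. Prelp and Prg4 were found together in 538 cells against 440 (1.22, 1.12 to 1.33). Without thinning, Fmod and Prg4 were found together in 336 fibroblasts against 234.

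Dpt did not join these genes. Fmod and Dpt were found together in 34 cells against 56.0 (0.607, 0.420 to 0.848), with Dpt in 20.2% of fibroblasts with Fmod and 33.9% of those without. Without thinning this ratio was 0.869. Prg4 and Dpt were found together in 614 cells against 628 (0.978, 0.902 to 1.06), and the intervals of all 4 pairs with Ecm1 included 1. Without thinning, Dpt and Ecm1 stood at 1.11 (1.01 to 1.21). In Scn7a-negative fibroblasts alone the ratios were 1.61 for Fmod and Prelp, 1.39 for Fmod and Prg4, 1.18 for Prelp and Prg4 and 0.554 for Fmod and Dpt. There Prg4 and Ecm1 also lay below the product (0.803, 0.660 to 0.969). In Scn7a-positive fibroblasts alone, where 9 cells had both Fmod and Prelp (2.35, 1.08 to 4.47), Fmod with Prg4 stood at 1.06 and Fmod with Dpt at 0.998. In the second run alone only Prelp with Prg4 had an interval above 1 (37 cells against 22.8, 1.62, 1.14 to 2.24).

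**Figure D4:**
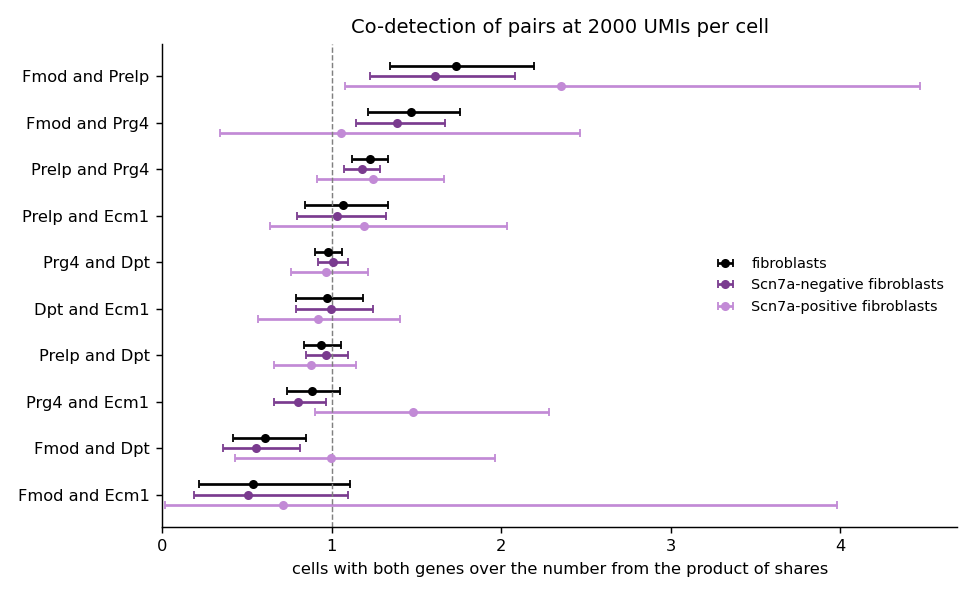
Number of fibroblasts with both genes of a pair divided by the number that the product of their shares gives, at 2000 UMIs per cell, for all, Scn7a-negative and Scn7a-positive fibroblasts. Points are ratios with 95% intervals and the dashed line marks 1. The 3 pairs of Fmod, Prelp and Prg4 lie above 1 in all fibroblasts and Fmod with Dpt lies below.

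Of the 5 members, 24.9% of fibroblasts had 0, 41.7% had 1, 26.1% had 2, 6.74% had 3 and 0.636% had 4 (25 cells), and 0 cells had all 5. In endothelial cells 64.1% had 0 and in Ptprc cells 84.5%. In endothelial cells 6 pairs had an interval above 1. Prelp and Ecm1 were found together in 229 cells against 197 (1.16, 1.02 to 1.32) and Prelp and Prg4 in 48 against 26.1 (1.84, 1.36 to 2.44). Prg4 and Dpt were found together in 26 cells against 3.36 (7.73, 5.05 to 11.3), Fmod and Prelp in 8 (4.18, 1.81 to 8.25), Fmod and Prg4 in 6 (7.63, 2.80 to 16.6) and Fmod and Dpt in 3 (12.2, 2.51 to 35.6). The pair of Fmod and Dpt rests on 3 endothelial cells, and no endothelial expression was read for Prg4, Dpt or Fmod. No difference in pairing between endothelial cells and fibroblasts is therefore read from these pairs. The highest Prg4 count in an endothelial cell was 83 UMIs.

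Ordering fibroblasts by Prg4 showed the same division on the level scale. Fibroblasts with 0, 1, 2 to 4 and 5 or more Prg4 UMIs of 2000 numbered 2051, 502, 705 and 675. Fmod stood at 0.139, 0.189, 0.433 and 0.548 across them, and Prelp at 1.16, 1.74, 1.89 and 2.16. Both values were higher at each step over both runs, whereas Dpt stood at 2.49, 2.50, 2.38 and 2.37. Ecm1 stood at 0.485, 0.398, 0.348 and 0.356, and Scn7a at 2.06, 1.12, 0.383 and 0.289. The gate genes moved less, with Col3a1 between 5.36 and 5.55 and Prrx1 between 2.97 and 3.66. In the second run Fmod stood at 0.0649, 0.217 and 0.125 and Prelp at 1.06, 2.17 and 1.63 in the first 3 bins, with no such order, and the highest bin held only 19 cells.

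**Figure D5:**
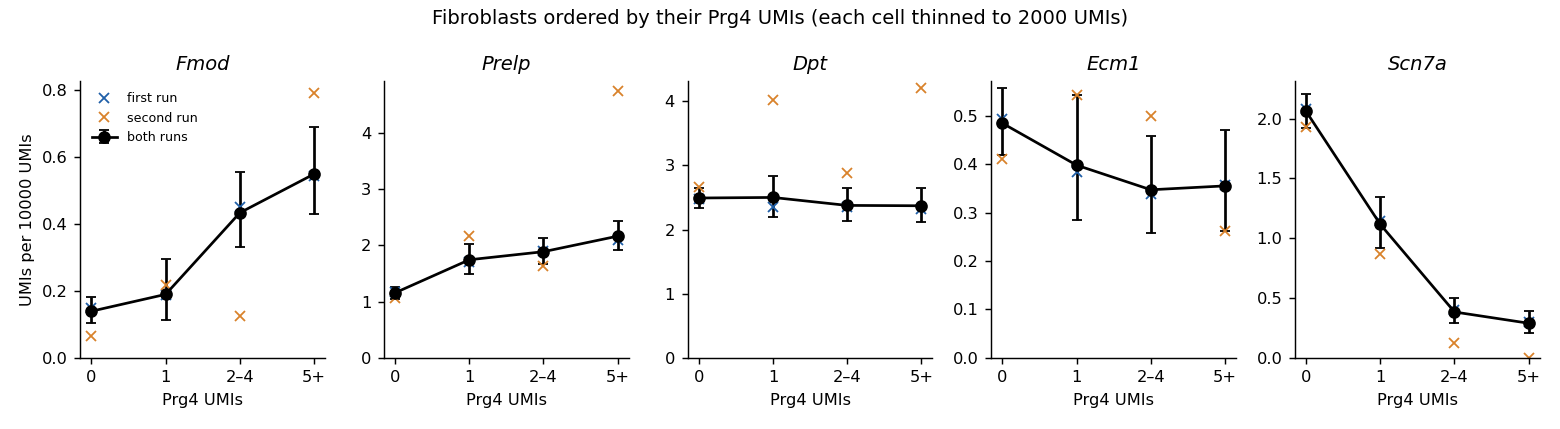
Level of Fmod, Prelp, Dpt, Ecm1 and Scn7a in UMIs per 10000 in fibroblasts grouped by their Prg4 UMIs after thinning to 2000 UMIs. Black points are both runs with 95% exact Poisson intervals and crosses are the runs of barcodes. Fmod goes from 0.139 to 0.548 and Prelp from 1.16 to 2.16, while Scn7a goes from 2.06 to 0.289.

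Over 4164 fibroblasts and 2280 genes, Pearson's r of the log values named the genes most like each member. These cells share libraries and depth, and r in sparse counts is only a description. Prg4 was most like Kcnq5, a potassium channel gene, with r = 0.405 (0.420 and 0.417 within the runs), followed by Rin2 (0.355), Ptgis, the prostacyclin synthase gene (0.341), Thbs1, thrombospondin 1 (0.324), and Fibin (0.321). It was least like Fmo2 (-0.312), Sp100 (-0.239) and Fmo1 (-0.224). For Fmod the closest were Thbs1 (0.246), Fibin (0.245), Rin2 (0.225), Pamr1 (0.220) and Ccdc3 (0.218). For Prelp they were Fibin (0.199), Thbs1 (0.199), Gsn, the actin-severing gelsolin (0.196), Pamr1 (0.195) and Prg4 itself (0.193). Thbs1 and Fibin thus stood among the closest 5 genes of Prg4, Fmod and Prelp. Dpt had another set, Plxdc2 (0.183), Fam78b (0.174), Mecom (0.174), Atp1b1 (0.152) and Pld1 (0.151). No gene exceeded 0.135 (Ccdc141) with Ecm1, whose next closest was Prnp at 0.0929. The least like were Garnl3 (-0.115), Fap (-0.111) and Hmcn1 (-0.105) for Fmod, Sp100 (-0.134), Fmo2 (-0.107) and Dclk1 (-0.106) for Prelp, Nckap5 (-0.142), Nrp2 (-0.141) and Ptgs1 (-0.128) for Dpt, and Gulp1 (-0.113), Mecom (-0.101) and Erbb4 (-0.0994) for Ecm1. Sp100 thus stood among the least like genes of both Prg4 and Prelp, and in each run (-0.240 and -0.234 with Prg4, -0.136 and -0.113 with Prelp), whereas Fmo2 with Prelp was -0.119 in the first run and above 0 in the second. Mecom was among the closest for Dpt and among the least like for Ecm1. In the second run Fmod had r of 0.116 with Rin2, 0.146 with Pamr1 and 0.0312 with Ccdc3, against 0.247 with Thbs1 and 0.236 with Fibin. There Prg4 had 0.164 with Ptgis and -0.0665 with Fmo1, against 0.279 with Rin2, 0.273 with Thbs1, 0.301 with Fibin and -0.320 with Fmo2.

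Other matrix genes did not all share the fibroblast pattern. Of 18 genes of the small leucine-rich proteoglycan family the matrix listed 3, the members Fmod, Prelp and Optc. Of 45 other matrix genes it listed 15, of which 13 could be compared. Relative to endothelial cells, 7 stood at least 2-fold higher in fibroblasts, the collagen chains Col6a3 (14.3-fold), Col5a1 (11.8-fold) and Col5a2 (3.27-fold), Adamtsl2 (11.8-fold), the thrombospondins Thbs1 (8.01-fold) and Thbs3 (2.07-fold), and Fbn1, the fibrillin gene altered in mgR mice. Another 5 stood at least 2-fold lower, Fn1, fibronectin (8.80-fold lower), Igfbp5 (5.86-fold lower), Hmcn1 (4.78-fold lower), Adamtsl4 (3.18-fold lower) and Ctsk, the protease cathepsin K (2.37-fold lower). Postn, periostin, stood between (1.23-fold higher). The median ratio was 2.07, against 1.05 over all genes compared. Adamtsl4, 46230 bases from Ecm1, stood at 0.211 in fibroblasts and 0.671 in endothelial cells, the same order as Ecm1. Tars2, only 407 bases from Ecm1, stood at 0.335 and 0.322 with overlapping intervals. A link between position and level was not tested. Between Scn7a-positive and Scn7a-negative fibroblasts 0 of the 13 were at least 2-fold higher and 2 were at least 2-fold lower, Thbs1 (ratio 0.328) and Fn1 (0.486), and the median ratio was 0.911 against 0.974 over all genes. Of 5 genes of the TGF-beta list, Bmpr2 stood lower in fibroblasts than in endothelial cells (0.470) and the other 4 lay between 0.514 and 1.44. None of the 5 reached 2-fold between the Scn7a groups.

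The matrix listed 2 of the 3 receptor genes tied to lubricin. Cd44, the hyaluronan receptor, stood at 2.12 in fibroblasts, 1.02 in endothelial cells and 6.18 in Ptprc cells. Its ratio of Scn7a-positive to Scn7a-negative fibroblasts was 0.514. The 3 macrophage markers were also lower with Scn7a (0.260 against 0.640), and their part in the Cd44 ratio was not tested. Tlr2, a toll-like receptor, did not separate fibroblasts from endothelial cells and stood at 0.333 in Ptprc cells. It did not separate the Scn7a groups either (ratio 1.27, 0.836 to 1.89).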

How the data were processed

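The authors aligned 10x Genomics 3′ v3 reads to mm10 with Cell Ranger 7.1.0, per the submitters' processing notes, and deposited 1 table of natural log values, ln(1 + UMIs per 10000 UMIs of the cell). It listed 3265 genes, of which 1 was left out for 11958 empty values, and 0 columns were unused. Whole UMIs were recovered for 100% of values (tolerance 0.02). Cells had 503 to 23127 UMIs (median 5349), and listed genes held 15.7% of them in the median cell. The members and lists were chosen with earlier results of these data known. Named were all 6 members, listed genes of the fixed lists, and for each member the 5 genes with the highest and the 3 with the lowest Pearson correlation among those in at least 1% of fibroblasts. Levels had exact Poisson, shares exact binomial and ratios exact conditional intervals (95%). Ratios needed 50 UMIs over both groups, and a 2-fold difference was counted as a call. The interval of a co-detection ratio took the product of the shares as fixed. Clusters came from 2000 variable genes without the members (50 components, 15 neighbours, resolution 0.5). Doublets were not removed, since Scrublet marked 9 cells (0.0549%), too few for its calls to be used. The statistics were tested on simulated data. Lists for other cells gave, in fibroblasts, endothelial and Ptprc cells, 0.0140, 0.0273 and 0.475 for T cells (Cd247), 0.267, 0.0433 and 0.0731 for melanocytes (Mlph), 0.153, 1.10 and 0.279 for cardiomyocytes (3 genes), 0.101, 0.00335 and 0.00913 for mural cells (2 genes) and 0.0850, 0.00372 and 0.0183 for chondrocytes (Matn4), and 1 further list is not reported here. Alternatives changed the gates, groups, depth, runs, doublets, averaging, thresholds and thinning. Python 3.11.15, scipy 1.17.1 and scanpy 1.11.5 were used.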

Additional observations from a re-analysis of the deposited data

Results flagged for a closer look

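The comparisons left out 2410 cells without a gate gene (14.7%, median 4319 UMIs) and 435 cells with both Prrx1 and Egfl7 (2.66%, median 8317 UMIs), and both sets held the members above the limit that a count of 0 allows. The cells without a gate gene stood at 4.59 for Prg4, 1.31 for Ecm1, 1.20 for Prelp, 0.632 for Dpt and 0.0680 for Fmod per 10000 UMIs. Those of them in cluster 1 (635 cells) stood at 18.9 for Prg4 and 2.47 for Dpt, and those in cluster 2 (947 cells) at 0.108 for Prg4, 1.19 for Prelp and 1.48 for Ecm1. The cells with both genes stood at 11.3 for Prg4, 1.40 for Dpt, 0.941 for Prelp, 0.786 for Ecm1 and 0.166 for Fmod.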

How the results depend on the processing

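No paired analysis was possible because all results come from 1 pooled matrix with no test between samples. Of 255 alternative values for single genes and pairs, 173 moved by less than the counting interval, 82 moved further and 0 values whose interval left out equality changed direction. The 255 also hold shares, and ratios whose interval included equality, for which a change of direction was not defined. The alternative without the cells that Scrublet marked dropped only 9 cells. The ratio of fibroblasts to endothelial cells ranged from 22.1 (gates read after thinning) to 89.8 (groups from clusters) for Prg4, 29.7 to 82.6 for Dpt, 14.2 to 36.9 for Fmod and 2.44 to 3.16 for Prelp. The ratio of Scn7a-positive to Scn7a-negative fibroblasts ranged from 0.135 to 0.266 for Prg4, 0.331 to 0.850 for Fmod, 0.667 to 0.898 for Prelp, 1.09 to 1.36 for Dpt and 0.784 to 1.15 for Ecm1. Members at least 2-fold lower with Scn7a numbered 2, and 1 in the second run. Pairs with an interval above 1 numbered 3, but 4 without thinning, 1 in Scn7a-positive fibroblasts alone and 1 in the second run, and the last 2 sets hold fewer cells. Pairs below 1 numbered 1, but 2 when thinned to 4000 UMIs or in Scn7a-negative fibroblasts alone, and 0 in Scn7a-positive fibroblasts alone or in the second run. At 1.5-fold instead of 2-fold, 2 matrix genes instead of 0 were higher and 4 instead of 2 lower with Scn7a. Restricting co-detection and the ratio between the Scn7a groups to the fibroblast clusters, and leaving out endothelial cells with Col3a1, were chosen after seeing the data. Depth limits Optc, with 11 UMIs, and Fmod in the second run, with 42 UMIs in fibroblasts.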

Other observations

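Among 8952 endothelial cells, Ecm1 was most like Olfml2a (r = 0.218), Id1 (0.196), Adamtsl4 (0.177), Thbd, thrombomodulin (0.170), and Vim, vimentin (0.166), and least like Mecom (-0.217) and Fmo2 (-0.208). Prelp was most like Prnp (0.244), Vim (0.236) and Gsn (0.221). These correlations of log values over 2125 genes were computed after the fibroblast values were seen and describe cells that share libraries and depth.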
